A study of Rattus norvegicus with 33 samples.

Results

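The transcripts of the translation initiation factors (eIFs) and elongation factors (eEFs) were followed in the soleus, a slow postural muscle of the lower hindlimb, of rats with spinal cord injury, electrical stimulation or overload. The factors were taken as the rows of the expression table whose only gene symbol starts with Eif1 to Eif6, Eef1 or Eef2. The eIF2 kinases, whose symbols start with Eif2ak, were left out, and the brightest row was kept where a gene had more than 1. This gave 53 rows for 51 genes, of 14506 genes with 1 symbol in the table. No row carried Eif4g1 or Eif5a2 as its only symbol, and those genes were not analysed here. The rule used gene names, and the mean level only to choose between rows of 1 gene.

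All animals were female Wistar rats, and each of 11 groups held 3 arrays from 3 rats. SCI rats had a complete cord transection between the 9th and 10th thoracic vertebrae at 9 weeks of age, and 14 weeks after it a tenotomy of the left gastrocnemius with the implantation surgery but no stimulator. Their soleus was collected 21 days after that second surgery. SCI-ES rats had the same transection and tenotomy and carried a stimulator that, from 16 weeks after transection, drove the muscle for 1 h per day over 1, 3 or 7 days. These are the days of the sample labels, while the series' design text gives 2 days in place of 3. At 1 and 3 days SCI-ES rats were nearer in time to the tenotomy than SCI rats, which had no implant. Stimulation cannot be told apart from the implant and this time in SCI-ES against SCI. Nor can days of stimulation be told apart from time since tenotomy between SCI-ES at 7 days and at 1 day. Sham-SCI rats had the spinal surgery with laminectomy, but neither a cut cord nor a tenotomy, so transection and tenotomy cannot be told apart between SCI and Sham-SCI. GA rats, aged 22 to 23 weeks and with an intact cord, had gastrocnemius ablation, here a cut of its distal tendon that loads the soleus, and were collected after 1, 3 or 7 days. Sham-GA rats had the same surgery on the same days with the tendon left whole.

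Initiation begins when eIF2, carrying the initiator tRNA and GTP, joins the small ribosomal subunit together with eIF1, eIF1A, eIF3 and eIF5. The eIF4F complex (the cap-binding eIF4E, the helicase eIF4A and the scaffold eIF4G) brings in the mRNA, and the 4E-binding proteins, substrates of the kinase complex mTORC1, hold eIF4E back. Once eIF5 has triggered GTP hydrolysis, eIF5B joins the large subunit, eIF2B recharges eIF2 with GTP, and eEF1 and eEF2 carry out elongation. Skeletal muscle fibers express the paralog eEF1A2 where most other cells use eEF1A1, and control of initiation by load is a known part of muscle growth.

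The arrays carried the profile of skeletal muscle. The mean level of 10 slow muscle markers was 12.1 to 13.5 on the log2 intensity scale over the 33 arrays, where a difference of 1 is 2-fold. This list included Acta1 and Ckm, which are not particular to slow fibers. Markers of fast fibers ranged between 7.47 and 13.3, of fibroblasts between 8.88 and 12.02, of macrophages between 7.32 and 10.4, of neutrophils between 5.02 and 6.97, and of T and B cells reached at most 5.85. In the transected groups fast markers averaged near slow ones, at 12.79 against 12.70 in SCI and 13.02 against 12.55 in SCI-ES at 1 day. In SCI-ES they averaged 12.40 against 12.98 at 3 days and 12.70 against 12.60 at 7 days. Array medians lay between 6.45 and 6.54, correlations within groups between 0.97149 and 0.99382, and no array was a copy of another. Sham-GA 3 days replicate 2 stood apart: its fibroblast markers averaged 11.12, against 9.20 and 9.65 on the other arrays of its group. Sham-SCI replicate 2 also stood apart, with fast fiber markers at 13.06, against 9.92 and 11.79 on the other Sham-SCI arrays, and macrophage markers at 7.32, against 9.31 and 8.11. In bulk muscle, fewer cells of a type and less RNA per cell cannot be told apart. The precision of every value is limited by 3 arrays per group.

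Between groups, the range of a factor's 11 group means had a median of 0.62 on the log2 scale, and the SD within a group a median of 0.13. Eif1a, which with Eif1ax encodes the scanning factor eIF1A, had the widest range, 1.32, with its lowest mean in SCI-ES at 3 days (9.10 ± 0.20) and its highest in GA at 1 day (10.42 ± 0.18, SD, n = 3 each). Eif3h, a subunit of the eIF3 scaffold, had the narrowest, 0.17. In 15 of the 51 factors the lowest of the 11 means was that of Sham-GA at 7 days, and in many others that of SCI-ES at 3 or 7 days. The share of all genes lowest in Sham-GA at 7 days was not counted. This ranking runs over both experiments, which differ in cord injury, age and surgery. Eif4e, the cap-binding protein, ranged between a mean of 10.06 ± 0.24 in Sham-GA 7 days and 10.68 ± 0.30 in GA 3 days. Eif5a, the hypusine-bearing factor, ranged between a mean of 11.82 ± 0.04 in SCI-ES 3 days and 12.29 ± 0.22 in GA 3 days. Eif6, which keeps the large subunit apart, ranged between a mean of 8.81 ± 0.07 in SCI-ES 3 days and 9.34 ± 0.39 in GA 1 day. Eef1a1, the general eEF1A, ranged between a mean of 12.99 ± 0.30 in SCI-ES 7 days and 13.46 ± 0.06 in GA 3 days. Levels are compared between groups for 1 gene at a time, because different probe sets respond differently.

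**Figure D1:**
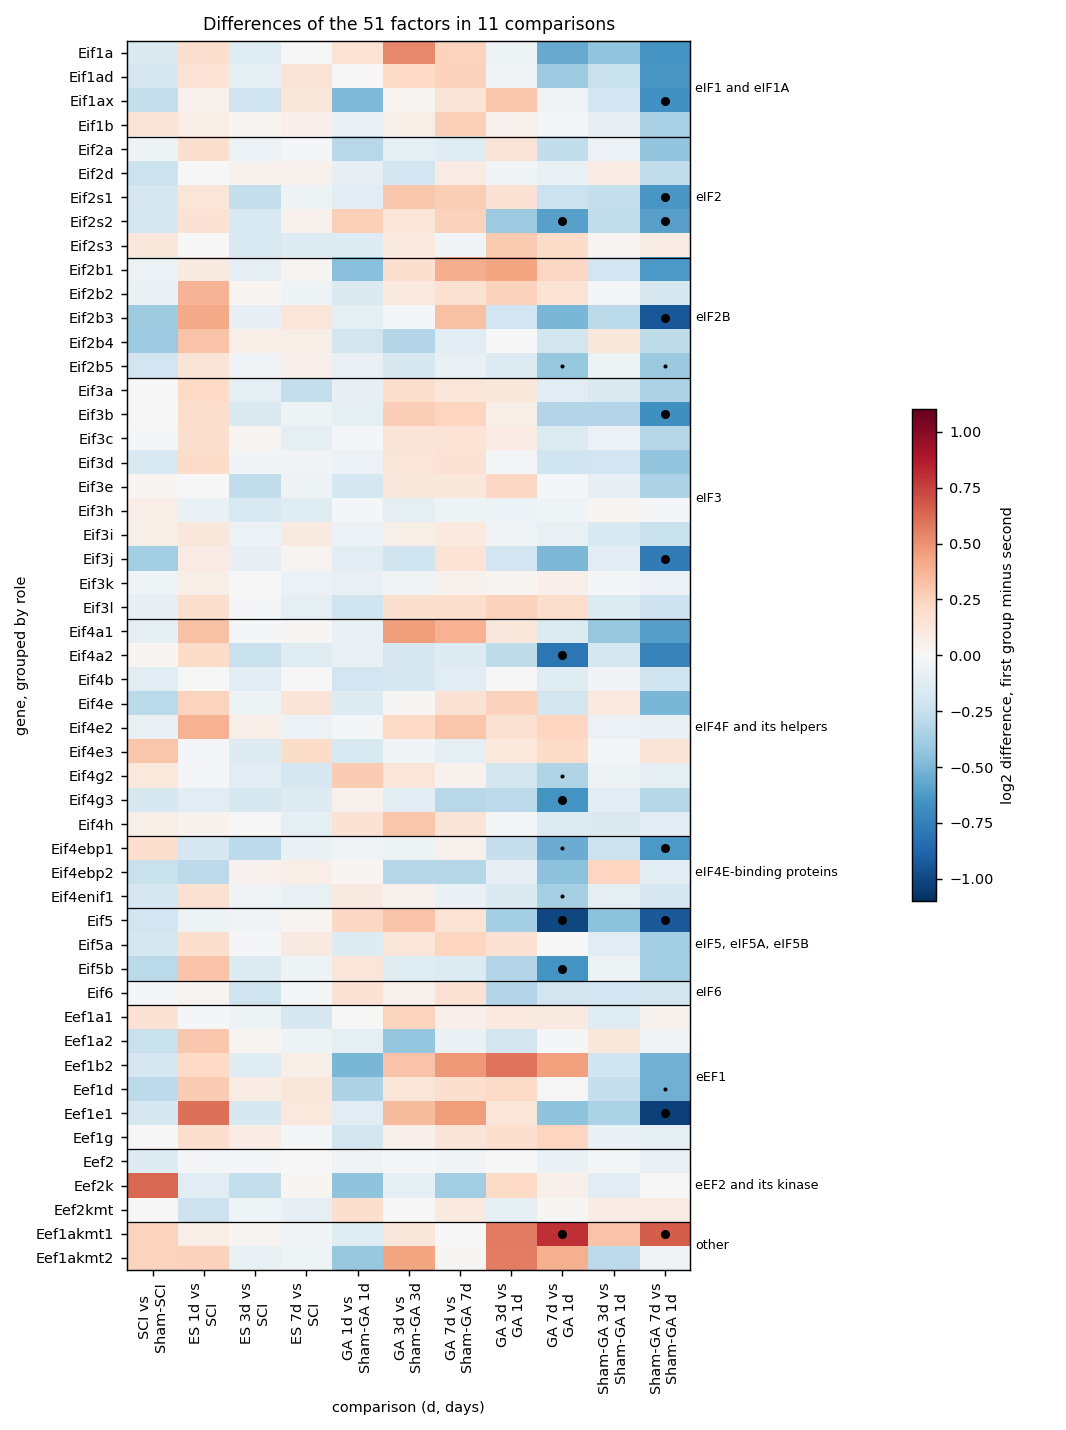
Log2 difference (colour, first group minus second) of 51 factors, grouped by role on the vertical axis, in 11 comparisons on the horizontal axis; ES is SCI-ES, large dots mark an adjusted p under 0.05 with at least 1.5 fold, small dots the adjusted p alone. Every dot stands in the columns that set 7 days against 1 day, 10 large dots in Sham-GA and 6 in GA.

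The clearest change in these transcripts was one of time after the tendon surgery, and more factors were called with the tendon left whole. Tested directly with limma, the difference in this change between GA and Sham-GA called 0 factors and 0% of all genes (lowest adjusted p = 0.403). With the tendon cut, the share of factors called in either direction was nearer to that of all genes (11.8%, against 8.6%). At 7 days the transcripts for eIF5, for the eIF2 beta subunit and for a group of other initiation factors were lower than at 1 day. A gene was called where limma's p, adjusted over all genes tested, was under 0.05 and the difference at least 1.5 fold. The comparison of days was added after the data had been seen, and whether arrays of different days were processed together is not given in the sources used here, so day and processing cannot be told apart. In Sham-GA, 7 days against 1 day, 10 of 51 factors were called (19.6%), against 6.57% of all 14451 genes tested. Of these, 9 fell (17.6%, against 3.11% of all genes) and 1 rose (1.96%, against 3.46%). In GA, 6 of 51 were called (11.8%), against 8.6% of all genes, with 5 that fell (9.8%, against 2.94%) and 1 that rose (1.96%, against 5.66%).

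Eif5, the factor that activates GTP hydrolysis by eIF2 at the start codon, had the lowest adjusted p of the 51 factors in both. Its log2 intensity was 10.54, 10.57 and 10.82 in GA at 7 days, against 11.91, 11.28 and 11.73 in GA at 1 day. In Sham-GA it was 10.37, 10.60 and 10.51 at 7 days, against 11.63, 11.27 and 11.35 at 1 day. No 7-day array reached any 1-day array, with or without the tendon cut. The log2 difference was -0.998 in GA (SE 0.14, limma adjusted p = 0.000497) and -0.92 in Sham-GA (SE 0.14, adjusted p = 0.00171). The day 3 means lay between, at 11.27 ± 0.06 in GA and 10.96 ± 0.06 in Sham-GA.

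Eif2s2, the beta subunit of eIF2, to which eIF5 binds, was the other initiation factor called in both, though its Sham-GA call was lost under other settings. Its values were 10.54, 10.60 and 10.59 in GA at 7 days, against 11.07, 11.28 and 11.17 in GA at 1 day. In Sham-GA they were 10.57, 10.32 and 10.07 at 7 days, against 10.98, 10.82 and 10.94 at 1 day. Again neither pair of groups overlapped, and the log2 differences were -0.60 in GA (SE 0.11, adjusted p = 0.00284) and -0.59 in Sham-GA (SE 0.11, adjusted p = 0.0049). The Sham-GA difference was -0.56, short of 1.5 fold, with quantile normalization applied again, and had an adjusted p of 0.0729 in a limma fit of only those groups. Eef1akmt1, a lysine methyltransferase of eEF1A, was the only factor called higher. It read 7.18, 7.49 and 7.59 in GA at 7 days, against 6.80, 6.52 and 6.52 in GA at 1 day, and 7.24, 7.50 and 7.49 in Sham-GA at 7 days, against 6.82, 6.81 and 6.60 in Sham-GA at 1 day. It rose by 0.80 in GA (SE 0.18, adjusted p = 0.00722) and by 0.67 in Sham-GA (SE 0.18, adjusted p = 0.0262).

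Among the guanine nucleotide exchange and eIF2 genes, Eif2b3, the gamma subunit of eIF2B, had the largest fall in Sham-GA. It was 8.06, 8.49 and 8.504 at 7 days, against 9.55, 9.13 and 9.18 at 1 day, with no overlap and a log2 difference of -0.93 (SE 0.17, adjusted p = 0.00343). In GA it was 8.59, 8.58 and 8.84 at 7 days, against 9.47, 8.87 and 9.19 at 1 day, a difference of -0.51 that did not pass the threshold (adjusted p = 0.0606). Eif2s1 was 9.34, 9.59 and 9.35 in Sham-GA at 7 days, against 10.44, 9.70 and 10.05 at 1 day, without overlap. This alpha subunit, which the eIF2 kinases phosphorylate, fell in Sham-GA (log2 difference -0.64, adjusted p = 0.0217). Eif2b5, the catalytic epsilon subunit of eIF2B, differed by -0.41 in each, with adjusted p = 0.0319 in GA and 0.0375 in Sham-GA, short of 1.5 fold.

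Eef1e1, a scaffold protein of the multi-synthetase complex with an elongation factor's name, had the largest difference in Sham-GA. It was 8.22, 8.73 and 8.5003 at 7 days, against 9.95, 9.15 and 9.43 at 1 day (log2 difference -1.03, SE 0.23, adjusted p = 0.0116). The 4E-binding protein Eif4ebp1 was 10.10, 10.22 and 10.16 in Sham-GA at 7 days, against 10.76, 10.67 and 10.94 at 1 day, and fell (log2 difference -0.63, SE 0.12, adjusted p = 0.00546). In GA its values of 10.35, 10.27 and 10.00 at 7 days, against 10.70, 10.73 and 10.82 at 1 day, gave -0.54 with adjusted p = 0.0083, short of 1.5 fold. Both Eif4ebp1 contrasts ran without overlap.

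The remaining calls were spread over the steps of initiation. Eif1ax was 9.17, 9.54 and 9.05 in Sham-GA at 7 days, against 9.91, 9.94 and 9.90 at 1 day, and fell by 0.66 (adjusted p = 0.0142). Eif3j was 9.69, 9.97 and 9.76 in Sham-GA at 7 days, against 10.37, 10.66 and 10.69 at 1 day. Eif3b was 10.06, 10.36 and 10.18 in Sham-GA at 7 days, against 11.06, 10.67 and 10.89 at 1 day. These eIF3 subunits, of which Eif3j is loosely bound, fell by 0.77 and 0.67 (adjusted p = 0.0116 and 0.0153), and in all 3 genes each 7-day array lay below each 1-day array. In GA, Eif5b was 8.90, 9.13 and 8.96 at 7 days, against 9.41, 9.86 and 9.68 at 1 day. Eif4g3 was 9.19, 9.18 and 9.10 in GA at 7 days, against 9.80, 9.79 and 9.86 at 1 day. Eif4a2 was 10.56, 10.61 and 10.60 in GA at 7 days, against 11.44, 11.24 and 11.48 at 1 day. The GTPase of subunit joining Eif5b fell by 0.66 (adjusted p = 0.0177), the scaffold Eif4g3 by 0.66 (adjusted p = 0.0283) and the helicase Eif4a2 by 0.80 (adjusted p = 0.0411), each without overlap. Of the elongation factors in Sham-GA, Eef2, the translocase, differed by -0.08, Eef1a1 by 0.04, Eef1a2 by -0.04 and the eEF1B scaffold Eef1g by -0.10, and none was called. Eef1d, an exchange subunit for eEF1A, differed by -0.52 (adjusted p = 0.0248). Eef1b2, another eEF1 subunit, was 9.11, 9.75 and 9.49 in Sham-GA at 7 days, against 10.26, 9.80 and 9.88 at 1 day. These arrays did not overlap, but Eef1b2 was not called. In GA its mean was higher at 7 days, at 9.60, 10.12 and 10.07, against 9.91, 9.27 and 9.25 at 1 day, with overlap. Eif2a, which delivers the initiator tRNA by a route apart from eIF2, differed by -0.44 in Sham-GA without overlap (adjusted p = 0.0568). Eif4enif1, the eIF4E carrier 4E-T, differed by -0.37 in GA without overlap (adjusted p = 0.0315).

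**Figure D2:**
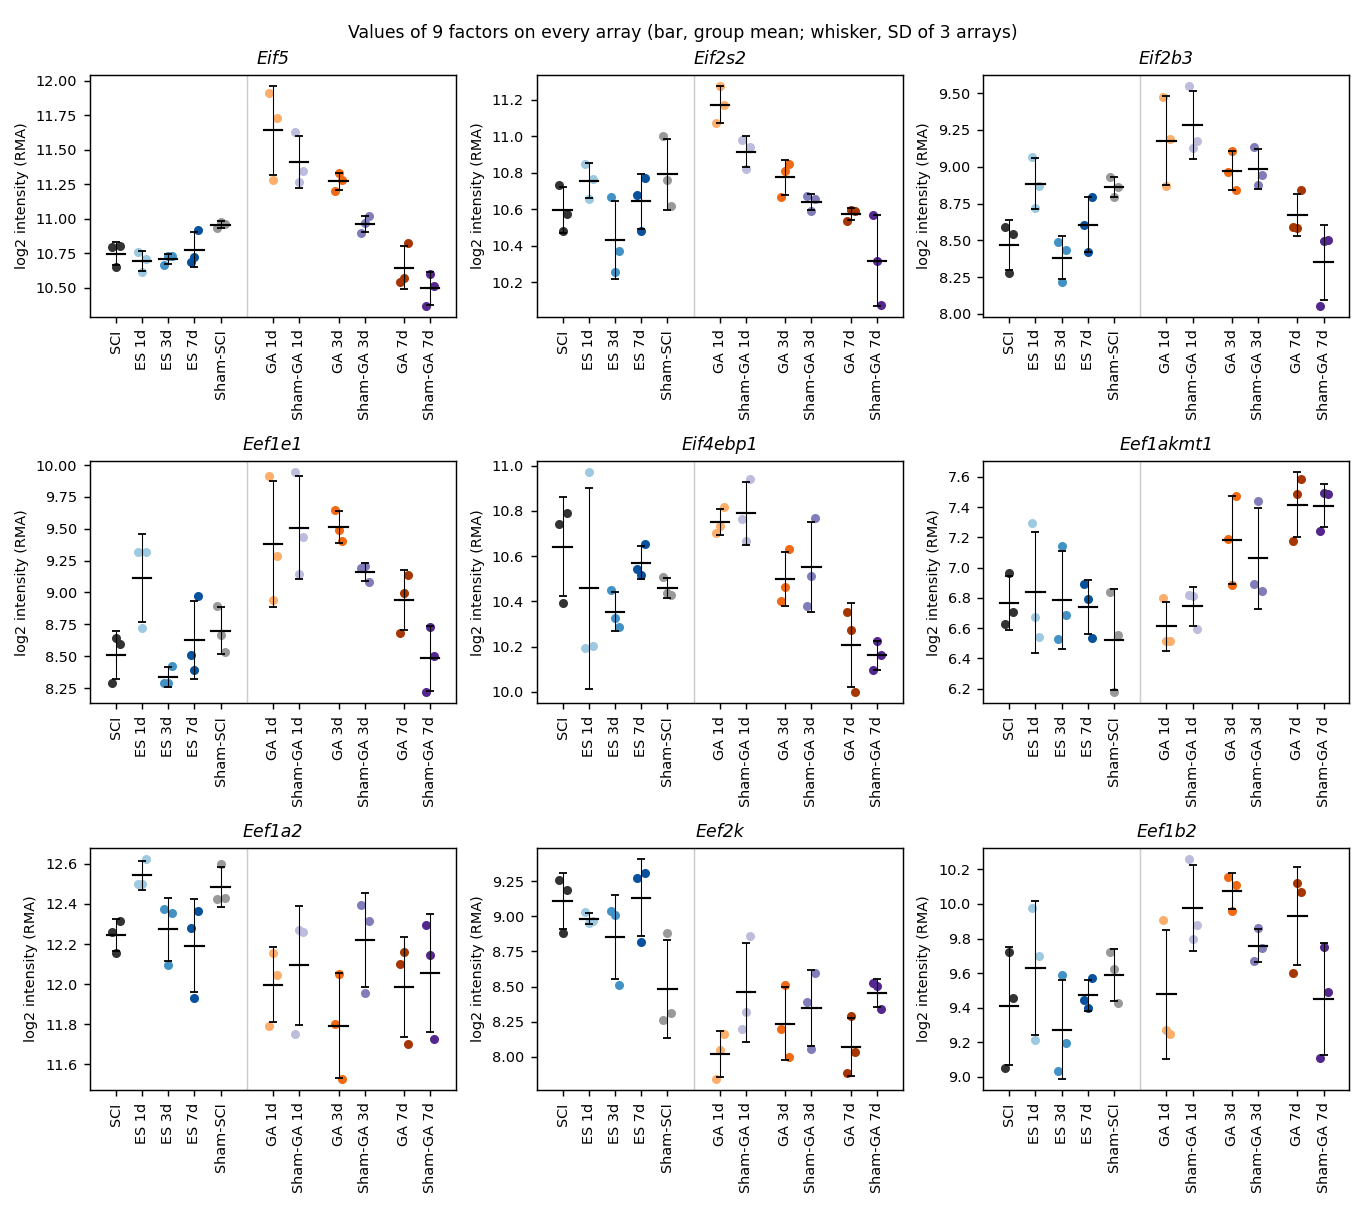
Log2 intensity (vertical axis, own scale per gene) of 9 factors on each of 33 arrays in 11 groups (horizontal axis; d, days; ES, SCI-ES); points are arrays, bars group means and whiskers the SD of 3 arrays. Eif5 and Eif2s2 lie lower at 7 days than at 1 day with no overlap in GA and in Sham-GA, and Eef1akmt1 lies higher.

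Counted over all members, 46 of 51 factors were lower at 7 days than at 1 day in Sham-GA, with a median log2 difference of -0.32, against -0.03 over all genes tested. In GA 36 of 51 were lower, with a median of -0.13, against -0.05 over all genes. Without GA 1 day replicate 1 the GA median was -0.04. Arrays of the groups did not overlap for 29 factors in Sham-GA (56.9%, against 28.5% of all genes) and for 18 in GA (35.3%, against 35.1%). By role, 10 of 10 eIF3 subunits were lower in Sham-GA (median -0.33) and 8 of 10 in GA (median -0.10). All 5 eIF2B subunits were lower in Sham-GA (median -0.41), and 3 of 5 in GA (median -0.20). The 3 genes of eIF5, eIF5A and eIF5B were lower in both, with medians of -0.66 in GA and -0.38 in Sham-GA.

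The GA and Sham-GA contrasts used separate arrays under 1 estimate of spread. The 3 factors called in both, Eif5, Eif2s2 and Eef1akmt1, were 50% of the GA calls and 30% of the Sham-GA calls. The same overlap was not counted over all genes, so these shares have no background. All 12 factors called lower in at least 1 of the contrasts were lower in both, but the sizes differed and some arrays overlapped in the other contrast. For example, Eif1ax was 9.34, 9.34 and 9.51 in GA at 7 days, against 9.55, 9.31 and 9.44 at 1 day. Eif5b was 9.51, 9.00 and 8.93 in Sham-GA at 7 days, against 9.48, 9.48 and 9.60 at 1 day. Averaged over GA and Sham-GA, 9 factors were called (17.6%, against 8.92% of all genes). The difference between the contrasts, which is also the change in the GA effect between day 1 and day 7, called 0 factors and 0% of all genes. At an unadjusted p under 0.05 it held 5 factors, all with the higher value for GA (9.8%, against 8.26% of all genes in either direction and 5.23% higher), and the lowest adjusted p was 0.403, for Eef1b2. At 3 days against 1 day no factor was called, in GA (background 3.09%) or in Sham-GA (background 0%), with 8 factors (background 19.8%) and 2 factors (background 5.43%) under an unadjusted p of 0.05. Without GA 3 days replicate 2, 1 factor was called in GA at 3 days against 1 day.

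The calls of factors rested in part on single arrays. The calls over all genes also moved with the array left out, between 455 and 1077 in Sham-GA and between 865 and 1353 in GA. With all arrays they were 949 in Sham-GA and 1243 in GA. In Sham-GA the count was 4 without Sham-GA 7 days replicate 3, 5 without Sham-GA 1 day replicate 1 and 6 without Sham-GA 1 day replicate 3, and between 8 and 13 without each of the others. Eif5 and Eif2b3 were called under each omission. Eif1ax and Eif3j lost their call only without Sham-GA 7 days replicate 3 (adjusted p = 0.0807 and 0.0523), and Eef1e1 only without Sham-GA 1 day replicate 1 (adjusted p = 0.051). Eif4ebp1 lost it only without Sham-GA 1 day replicate 3, at a difference of -0.55. Eif2s1, Eif2s2, Eif3b and Eef1akmt1 each lost it without at least 1 of those 3 arrays, and Eif2s1 and Eif3b also without Sham-GA 7 days replicate 1 and Eef1akmt1 without Sham-GA 7 days replicate 2. A fit of only the Sham-GA groups compared called 6 factors and lost Eef1e1, Eif1ax, Eif2s1, Eif2s2 and Eif3b, at adjusted p values between 0.0516 and 0.113. Quantile normalization applied again took Eif2s2 and Eif4ebp1 below 1.5 fold (-0.56 and -0.58). In GA the count was 3 without GA 1 day replicate 2, GA 1 day replicate 3 or GA 7 days replicate 1, and 4 to 6 without the others. Eif5 and Eef1akmt1 were called under each, Eif2s2 was lost without GA 1 day replicate 2 or GA 7 days replicate 1, Eif5b without any of those 3 arrays or GA 7 days replicate 3, and Eif4g3 and Eif4a2 without any 1 array of GA at 1 or 7 days.

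**Figure D3:**
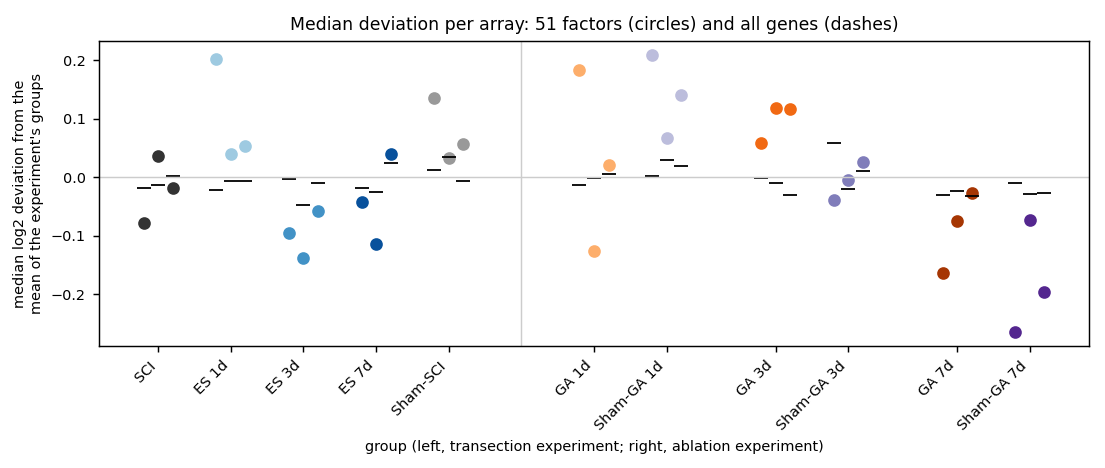
Median log2 deviation of the 51 factors (circles) and of all genes (dashes) from the mean of the experiment's groups, per array (vertical axis), for 11 groups (horizontal axis; d, days; ES, SCI-ES). The Sham-GA arrays lie between 0.07 and 0.21 at 1 day and between -0.27 and -0.07 at 7 days, while all genes stay within 0.06 of 0.

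Markers of other cell types differed over the same days. All 8 fibroblast markers were higher at 7 days than at 1 day, and their mean level was 11.62 to 11.91 in GA at 7 days, against 9.13 to 9.69 in GA at 1 day. In Sham-GA it was 11.42 to 12.02 at 7 days, against 9.16 to 9.67 at 1 day. The 6 called in each contrast included Col1a1, a collagen of connective tissue (3.09 in GA and 2.89 in Sham-GA on the log2 scale). Macrophage markers averaged 9.64 to 10.11 in GA at 7 days, against 9.501 to 9.77 at 1 day, and 9.32 to 10.06 in Sham-GA at 7 days, against 8.87 to 9.85 at 1 day. Neutrophil markers averaged 5.05 to 5.15 in GA at 7 days, against 6.29 to 6.97 at 1 day, and 5.12 to 5.21 in Sham-GA at 7 days, against 5.18 to 6.57 at 1 day. Schwann cell markers averaged 6.69 to 6.88 in GA at 7 days, against 6.45 to 6.51 at 1 day, and 6.58 to 6.85 in Sham-GA, against 6.35 to 6.44. In GA, adipocyte markers averaged 7.56 to 8.90 at 7 days, against 6.93 to 6.99 at 1 day. Endothelial markers averaged 8.69 to 9.07 in GA at 7 days, against 8.30 to 8.54 at 1 day. The adipocyte and endothelial ranges overlapped in Sham-GA. The 10 slow muscle markers had medians of -0.10 in GA and -0.06 in Sham-GA, and 0 were called. The part of these cells in the factors' decline was not tested.

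The promoters of 4 of the 9 factors called lower in Sham-GA at 7 days against 1 day are shown: Eef1e1, Eif2b3 and Eif5, which had the largest falls, and Eif2s2, which was called lower in GA as well. RefSeq sequence of the build GRCr8 was read from 250 bases before to 30 bases after the annotated start, 5′ to 3′ on the gene's strand, and a promoter was found for 45 of 51 factors. Capitals mark a match to the core of the cyclic AMP response element, TGACGT on either strand. The windows were chr6:136410083-136410362 on the plus strand for Eif5, chr3:163855541-163855820 on the minus strand for Eif2s2, chr5:135728592-135728871 on the plus strand for Eif2b3 and chr17:26353997-26354276 on the plus strand for Eef1e1.
Eif5: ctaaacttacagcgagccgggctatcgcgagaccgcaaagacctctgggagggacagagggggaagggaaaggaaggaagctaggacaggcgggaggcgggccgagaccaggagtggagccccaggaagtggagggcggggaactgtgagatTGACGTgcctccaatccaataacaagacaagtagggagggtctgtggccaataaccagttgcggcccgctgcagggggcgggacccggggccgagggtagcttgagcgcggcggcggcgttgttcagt
Eif2s2: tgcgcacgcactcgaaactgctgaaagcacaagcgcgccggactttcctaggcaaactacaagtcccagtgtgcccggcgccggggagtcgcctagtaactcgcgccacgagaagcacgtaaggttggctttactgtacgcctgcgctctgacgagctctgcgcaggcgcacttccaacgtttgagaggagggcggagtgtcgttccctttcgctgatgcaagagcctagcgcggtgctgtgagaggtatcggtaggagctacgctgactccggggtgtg
Eif2b3: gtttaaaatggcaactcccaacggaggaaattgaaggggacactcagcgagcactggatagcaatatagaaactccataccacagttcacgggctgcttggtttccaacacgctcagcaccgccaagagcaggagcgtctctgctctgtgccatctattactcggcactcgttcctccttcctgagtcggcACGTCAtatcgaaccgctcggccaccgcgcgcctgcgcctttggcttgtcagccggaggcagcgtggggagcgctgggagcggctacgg
Eef1e1: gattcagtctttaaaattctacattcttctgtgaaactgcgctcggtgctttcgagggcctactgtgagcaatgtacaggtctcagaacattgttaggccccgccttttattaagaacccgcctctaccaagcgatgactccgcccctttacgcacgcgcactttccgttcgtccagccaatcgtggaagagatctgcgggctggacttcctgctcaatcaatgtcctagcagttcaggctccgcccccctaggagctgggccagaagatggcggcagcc

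The match began 98 bases before the start in Eif5 and 59 bases before it in Eif2b3, and the windows of Eif2s2 and Eef1e1 held none. Over all factors, 9 of 45 promoters held TGACGT or its reverse complement ACGTCA (20.0%), against 7.9% of 27457 rat promoters of the same length. The ETS motif CCGGAAG, on either strand, stood in 15 of 45 (33.3%, against 8.9%), and the E-box CACGTG in 7 of 45 (15.6%, against 6.39%). Matches of different motifs can overlap in part, as the letters TG end the E-box and open the core. Of 16 factors lower at 7 days with an adjusted p under 0.05 in GA or Sham-GA, 14 had a promoter, and 2, 1 and 1 of these held the response element core, the ETS motif and the E-box. The 2 with the core were Eif5 and Eif2b3, both among the promoters printed. A match is a string of letters and not a bound site.

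Set against Sham-GA of the same day, ablation moved no factor past the threshold. These comparisons use the arrays that also entered the comparisons of days. At 1 day 0 of 51 factors were called, against 0.0554% of all genes, and 38 of 51 were lower (median -0.09, against -0.01 over all genes). The median was -0.03 without GA 1 day replicate 2, -0.17 without GA 1 day replicate 1 and -0.04 with quantile normalization applied again. The 5 highest log2 differences were those of Eif4g2 (0.28), Eif2s2 (0.26), Eif5 (0.23), Eef2kmt (0.18) and Eif4h (0.16), and the 5 lowest those of Eef1b2 (-0.50), Eif1ax (-0.48), Eif2b1 (-0.46), Eef2k (-0.44) and Eef1akmt2 (-0.42). The scaffold Eif4g2 (DAP5), which serves initiation without eIF4E, was 12.08, 12.01 and 12.13 in GA, against 11.75, 11.75 and 11.89 in Sham-GA. All 3 GA arrays lay above all Sham-GA arrays, by 0.28 (SE 0.08, limma adjusted p = 0.163). Eif1ax was 9.55, 9.31 and 9.44 in GA, against 9.91, 9.94 and 9.90 in Sham-GA, below them without overlap (log2 difference -0.48, SE 0.15, adjusted p = 0.197). All 10 eIF3 subunits and all 5 eIF2B subunits had lower means in GA, with medians of -0.08 and -0.16. Of the 51, 9 had an unadjusted p under 0.05 (17.6%, against 13.7% of all genes). The test of the methods was an analysis of variance at an unadjusted p under 0.05 with a minimum of 1.5 fold, across the groups in the transection experiment and by ablation and day in the ablation experiment, where the p for ablation was used. It called 0 factors at 1 day, against 3.08% of all genes. Neutrophil markers averaged 6.29 to 6.97 in GA, against 5.18 to 6.57 in Sham-GA.

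At 3 days 32 of 51 factors had higher means in GA (median 0.06, against -0.03 over all genes; 0.10 without GA 3 days replicate 1 or replicate 2), and again 0 were called, against 0% of all genes. Arrays did not overlap for 11 factors (21.6%, against 13.5%), 10 of them higher in GA (5.86% of all genes). Eif1a was 10.27, 10.45 and 10.37 in GA, against 9.68, 10.12 and 9.71 in Sham-GA, each GA array above each Sham-GA array (0.53, SE 0.21, adjusted p = 0.288). Eif4a1, the main eIF4A helicase, was 11.94, 11.87 and 12.18 in GA, against 11.35, 11.92 and 11.35 in Sham-GA, with overlap (0.46, adjusted p = 0.293). The muscle paralog Eef1a2 was lower, at 11.80, 12.05 and 11.53 in GA, against 12.39, 11.95 and 12.32 in Sham-GA, with overlap (-0.43, adjusted p = 0.302). The Sham-GA array nearest to GA in these last 2 genes was replicate 2, the one with the high fibroblast markers. Without it 0 factors were called and 1 had an adjusted p under 0.05, while the calls over all genes were 1286 without it and 0 with it. With all arrays, the log2 differences were highest for Eif1a (0.53), Eif4a1 (0.46), Eef1akmt2 (0.43), Eef1e1 (0.35) and Eef1b2 (0.32) and lowest for Eef1a2 (-0.43), Eif2b4 (-0.33), Eif4ebp2 (-0.31), Eif3j (-0.22) and Eif2d (-0.21). At an unadjusted p under 0.05 there were 6 factors (11.8%, against 16.5%), and the test of the methods called 0, against 4.37% of all genes. Fibroblast markers averaged 10.66 to 11.32 in GA, against 9.20 to 11.12 in Sham-GA.

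At 7 days 36 of 51 factors had higher means in GA (median 0.13, against 0.00 over all genes), with 0 called against 0% of all genes. The median was 0.06 without Sham-GA 7 days replicate 1 and 0.07 without GA 7 days replicate 3. Eef1b2, the nucleotide exchange subunit of eEF1, was 9.60, 10.12 and 10.07 in GA, against 9.11, 9.75 and 9.49 in Sham-GA, with overlap (0.48, SE 0.20, adjusted p = 0.999). At 1 day it had stood the other way, at 9.91, 9.27 and 9.25 in GA, against 10.26, 9.80 and 9.88 in Sham-GA (-0.50, SE 0.20, adjusted p = 0.298). The difference between these effects was 0.98 (SE 0.28, adjusted p = 0.403). Eef2k, the kinase that inhibits eEF2, had lower means in GA at all 3 days, and averaged over them its difference was -0.31 (SE 0.11, adjusted p = 0.19). At 7 days the factors with the highest log2 differences were Eef1b2 (0.48), Eef1e1 (0.46), Eif2b1 (0.40), Eif4a1 (0.38) and Eif2b3 (0.32), and those with the lowest were Eef2k (-0.39), Eif4ebp2 (-0.31), Eif4g3 (-0.30), Eif5b (-0.15) and Eif4a2 (-0.15). Eif2s2 was 0.22 higher on average (adjusted p = 0.169) and Eif4g2 0.15 (adjusted p = 0.166). No factor was called for the mean effect, against 0% of all genes, and 9 had an unadjusted p under 0.05 (17.6%, against 19.3%), while at 7 days alone there were 2 (3.92%, against 2.63%). The test of the methods called 0 at 7 days (1.02% of all genes) and 0 for the mean (1.99%).

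**Figure D4:**
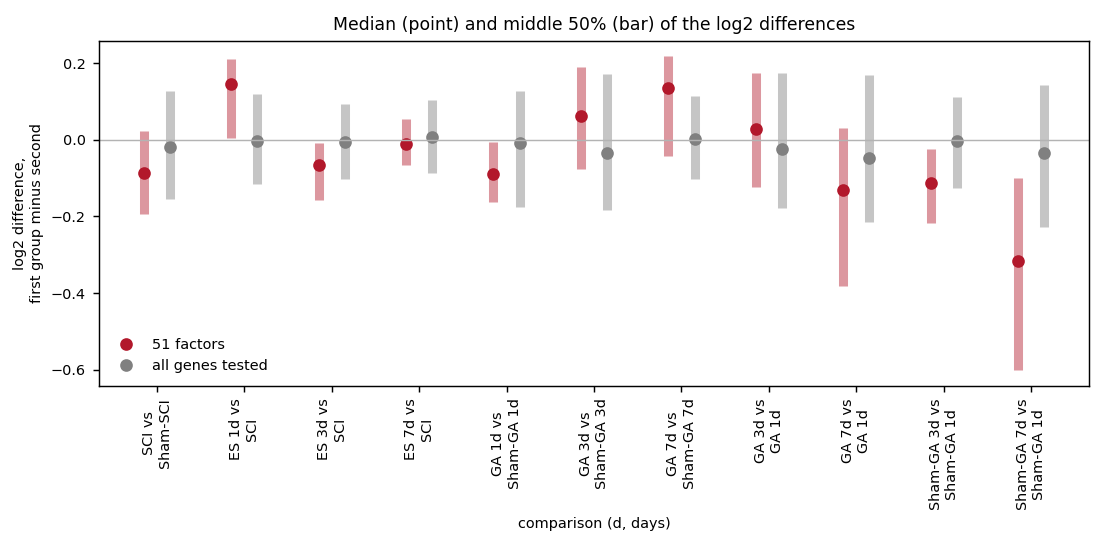
Median (points) and middle 50% (bars) of the log2 differences of the 51 factors and of all genes tested (vertical axis) in 11 comparisons (horizontal axis; d, days; ES, SCI-ES). The factors lie farthest from all genes in Sham-GA at 7 days against 1 day, at a median of -0.32 against -0.03.

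After transection the factors lay slightly low and none passed the threshold. In SCI, compared with Sham-SCI, 36 of 51 had lower means (median -0.09, against -0.02 over all genes), and 0 were called, against 0.401% of all genes. The median was -0.04 without SCI replicate 1 and -0.055 without Sham-SCI replicate 1. Arrays did not overlap for 13 factors (25.5%, near the 22.3% of all genes in either direction). All 13 were lower in SCI, against 13.1% of all genes lower without overlap. The 5 eIF2B subunits all had lower means (median -0.21). Eif2b3 was 8.59, 8.28 and 8.54 in SCI, against 8.93, 8.80 and 8.86 in Sham-SCI (-0.39, SE 0.13, adjusted p = 0.184). Eif2b4, the delta subunit, was 8.96, 8.42 and 8.75 in SCI, against 9.04, 9.07 and 9.21 in Sham-SCI (-0.40, SE 0.15, adjusted p = 0.233). In both subunits every SCI array lay below every Sham-SCI array. Eef1d followed the same pattern, with 9.18, 9.44 and 9.44 in SCI, against 9.70, 9.66 and 9.56 in Sham-SCI (-0.29, SE 0.11, adjusted p = 0.262).

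The largest difference after transection was that of Eef2k. It was 9.26, 8.88 and 9.19 in SCI, against 8.26, 8.88 and 8.31 in Sham-SCI, a difference of 0.63 (SE 0.19, adjusted p = 0.161). Sham-SCI replicate 2, at 8.88, met the lowest SCI array, so the groups were not apart. Its target Eef2 was 12.26 ± 0.13 in SCI and 12.40 ± 0.06 in Sham-SCI. Eif5 was 10.79, 10.65 and 10.80 in SCI, against 10.93, 10.98 and 10.96 in Sham-SCI, with no overlap but a difference of -0.21. On the side of higher means in SCI the leading log2 differences were those of Eef2k (0.63), Eif4e3 (0.31), Eef1akmt2 (0.25), Eef1akmt1 (0.24) and Eif4ebp1 (0.18), and on the lower side those of Eif2b4 (-0.40), Eif2b3 (-0.39), Eif3j (-0.38), Eif5b (-0.30) and Eif4e (-0.29). Unadjusted p was under 0.05 for 8 factors (15.7%, against 14.6%), 7 of them lower (8.17% of all genes), and the test of the methods called 0, against 2.55% of all genes. Beside these values, all 8 fibroblast markers were higher in SCI, at mean levels of 10.28 to 10.93 in SCI, against 8.88 to 9.28 in Sham-SCI. All 9 fast fiber markers were higher too, at 12.42 to 12.98 in SCI, against 9.92 to 13.06 in Sham-SCI, and slow markers averaged 12.48 to 12.85 in SCI, against 13.19 to 13.48 in Sham-SCI. Their part in the factors' levels was not tested.

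One day of stimulation, with an implant and a shorter time since tenotomy than in SCI, went with higher means of most factors. In SCI-ES at 1 day, compared with SCI, 40 of 51 were higher (median 0.15, against -0.00 over all genes), yet 0 were called, against 0% of all genes. Eef1e1 was 9.32, 8.72 and 9.32 in SCI-ES, against 8.29, 8.64 and 8.60 in SCI, higher on every array (0.61, SE 0.18, adjusted p = 0.614). Eif2b3 was 9.07, 8.72 and 8.87 in SCI-ES, against 8.59, 8.28 and 8.54 in SCI, also without overlap (0.42, SE 0.13, adjusted p = 0.614). Eef1a2 was 12.50, 12.50 and 12.63 in SCI-ES, against 12.26, 12.16 and 12.32 in SCI (0.30, adjusted p = 0.684). All 5 eIF2B subunits (median 0.31), all 5 of Eif2s1, Eif2s2, Eif2s3 (subunits of eIF2), Eif2a and Eif2d (median 0.14) and 9 of 10 eIF3 subunits (median 0.15) had higher means. The 4E-binding proteins Eif4ebp1 and Eif4ebp2 and the eEF2 group of Eef2, Eef2k and Eef2kmt had lower means, between -0.29 and -0.01. Eif4ebp1 was 10.19, 10.97 and 10.20 in SCI-ES, against 10.74, 10.39 and 10.79 in SCI. Eif4ebp2 was 8.89, 9.61 and 9.02 in SCI-ES, against 9.63, 9.11 and 9.64 in SCI. In both, SCI-ES 1 day replicates 1 and 3 were the low arrays and replicate 2 lay within or above SCI. The leading log2 differences were those of Eef1e1 (0.61), Eif2b3 (0.42), Eif4e2 (0.38), Eif2b2 (0.37) and Eif4a1 (0.32) on the higher side and, on the lower, Eif4ebp2 (-0.29), Eef2kmt (-0.23), Eif4ebp1 (-0.19), Eef2k (-0.13) and Eif4g3 (-0.13).

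Arrays did not overlap for 10 factors (19.6%, against 11.4%), 9 of them higher in SCI-ES at 1 day (6.02% of all genes). Unadjusted p was under 0.05 for 8 factors (15.7%, against 7.28%), and the test of the methods called 1, Eef1e1 (1.96%, against 0.809% of all genes), and 0 after Benjamini-Hochberg adjustment. SCI-ES 1 day replicate 1 carried part of the shift: the median was 0.07 without it and 0.10 without SCI replicate 1, and the factors' median deviation was 0.20 on that array, against 0.04 and 0.05 on the other arrays of its group. The SCI arrays are shared with the comparison to Sham-SCI, so a low SCI value enters both. In Sham-SCI, Eef1d stood at 9.64 ± 0.07, Eef1a2 at 12.49 ± 0.10 and Eif2b3 at 8.86 ± 0.07, beside 9.63 ± 0.07, 12.54 ± 0.07 and 8.89 ± 0.17 in SCI-ES at 1 day (SD, n = 3 each). These are examples, and other factors stood apart. Eif5 was 10.75, 10.62 and 10.71 in SCI-ES at 1 day, against 10.93, 10.98 and 10.96 in Sham-SCI. Eef2k was 9.03, 8.95 and 8.97 in SCI-ES at 1 day, against 8.26, 8.88 and 8.31 in Sham-SCI. How many factors stood near Sham-SCI was not counted. All 8 fibroblast markers were lower, at mean levels of 9.86 to 10.41 in SCI-ES, against 10.28 to 10.93 in SCI. All 8 neutrophil markers were higher, at 5.25 to 5.96 in SCI-ES, against 5.02 to 5.17 in SCI. Slow muscle markers averaged 12.22, 13.34 and 12.09 in SCI-ES, against 12.77, 12.85 and 12.48 in SCI, with replicates 1 and 3 of SCI-ES again the low arrays. The part of these cells was not tested.

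At 3 days of stimulation most factors lay slightly below SCI, at 7 days they lay close to it, and none passed the threshold at either day. At 3 days 12 of 51 had higher means (median -0.07, against -0.01 over all genes), and 22 of 51 at 7 days (median -0.01, against 0.01). Neither day called a factor or any other gene (0%), 1 factor at each had an unadjusted p under 0.05 (1.96%, against 3.07% at 3 days and 2.84% at 7 days), and the test of the methods called 0 (0.291% of all genes at 3 days and 0.18% at 7 days). At 3 days that factor was Eif3e (-0.27) and at 7 days Eif3a (-0.26), both eIF3 subunits. At 3 days the log2 differences were highest for Eef1d (0.08), Eef1g (0.08), Eif2b4 (0.07), Eif4e2 (0.07) and Eif4ebp2 (0.05), and lowest for Eif4ebp1 (-0.29), Eif3e (-0.27), Eif2s1 (-0.26), Eef2k (-0.26) and Eif4a2 (-0.24). At 7 days they were highest for Eif4e3 (0.20), Eif1ad (0.14), Eif4e (0.14), Eif2b3 (0.14) and Eif1ax (0.13), and lowest for Eif3a (-0.26), Eif4g2 (-0.19), Eef1a1 (-0.17), Eif2s3 (-0.14) and Eif4g3 (-0.14). No factor stood 1.5 fold apart at either day. In SCI-ES at 7 days, compared with 1 day, 42 of 51 factors had lower means (median -0.13, against 0.02), 0 were called against 0% of all genes, and 10, all lower, had an unadjusted p under 0.05 (19.6%, against 12.1% of all genes in either direction and 7.75% lower). Eif3a was 9.59, 9.52 and 9.69 at 7 days, against 10.26, 9.98 and 10.01 at 1 day, with no overlap (-0.48, SE 0.11, adjusted p = 0.244). Against 1 day, the lowest log2 differences were those of Eef1e1 (-0.49), Eif3a (-0.48), Eif4e2 (-0.44), Eif2b2 (-0.42) and Eif5b (-0.37), and the highest those of Eif4ebp2 (0.36), Eif4e3 (0.21), Eef2k (0.15), Eef2kmt (0.14) and Eif4ebp1 (0.12). This comparison shares the SCI-ES 1 day arrays with the comparison of that day to SCI, and the test of the methods called 0, against 1.26% of all genes.

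Stimulation and ablation both load the soleus again or more heavily, and their effects were set against each other as differences of differences over all 33 arrays. Each effect was taken against its own control, SCI or Sham-GA. The experiments differ in cord injury, age and time since tenotomy, which cannot be told apart from the kind of load. At 1 day the effect of ES exceeded that of GA in 40 of 51 factors (median 0.21, against 0.00 over all genes), with 0 called, against 0.0554% of all genes. Eef1d had the lowest p: its effect was 0.28 for ES and -0.34 for GA, a difference of 0.62 (SE 0.18, adjusted p = 0.128). Without GA 1 day replicate 1 this difference was 0.75 (adjusted p = 0.0473) and Eef1d was called, the only such change among the arrays left out. Unadjusted p was under 0.05 for 13 factors (25.5%, against 13% of all genes), 11 of them higher for ES (9.03% of all genes). At 3 and 7 days the effect of ES was the lower one in 41 and 39 of 51 factors (medians -0.13 and -0.12, the last -0.06 without Sham-GA 7 days replicate 1 and -0.19 without its replicate 2), with 0 called and a background of 0%, and 7 and 2 factors under an unadjusted p of 0.05 (13.7%, against 9.47%, and 3.92%, against 3.14%).

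Neighboring genes of the pathway gave context for the fall between 1 and 7 days. The 21 cytosolic aminoacyl-tRNA synthetases and scaffolds serve the charging of tRNAs for elongation, and 4 of them fell in GA and 12 in Sham-GA at 7 days against 1 day, with a background of 2.94% of all genes lower in GA and 3.11% in Sham-GA. The list medians were -0.35 in GA and -0.64 in Sham-GA, against -0.05 and -0.03 over all genes. Mars1, the methionyl enzyme, fell by 0.64 in GA and 0.81 in Sham-GA, and Yars1, the tyrosyl enzyme, by 0.71 in GA and 0.84 in Sham-GA. The mean level of the list was 9.43 to 9.56 in GA at 7 days, against 9.78 to 10.00 at 1 day, and 9.25 to 9.44 in Sham-GA at 7 days, against 9.87 to 9.92 at 1 day. Of 13 genes of the eIF2 kinases and the integrated stress response, Atf4, the transcription factor translated when eIF2 is phosphorylated, fell in both (-0.67 in GA and -1.03 in Sham-GA). Ppp1r15a, which directs the phosphatase to eIF2, fell by 1.197 in GA and 0.76 in Sham-GA, and the stress-induced Nupr1 rose by 2.83 in GA and 1.45 in Sham-GA. In total 3 genes of that list were called lower and 1 higher in GA, and 2 lower and 1 higher in Sham-GA, where 8.6% of all genes were called in GA and 6.57% in Sham-GA.

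**Figure D5:**
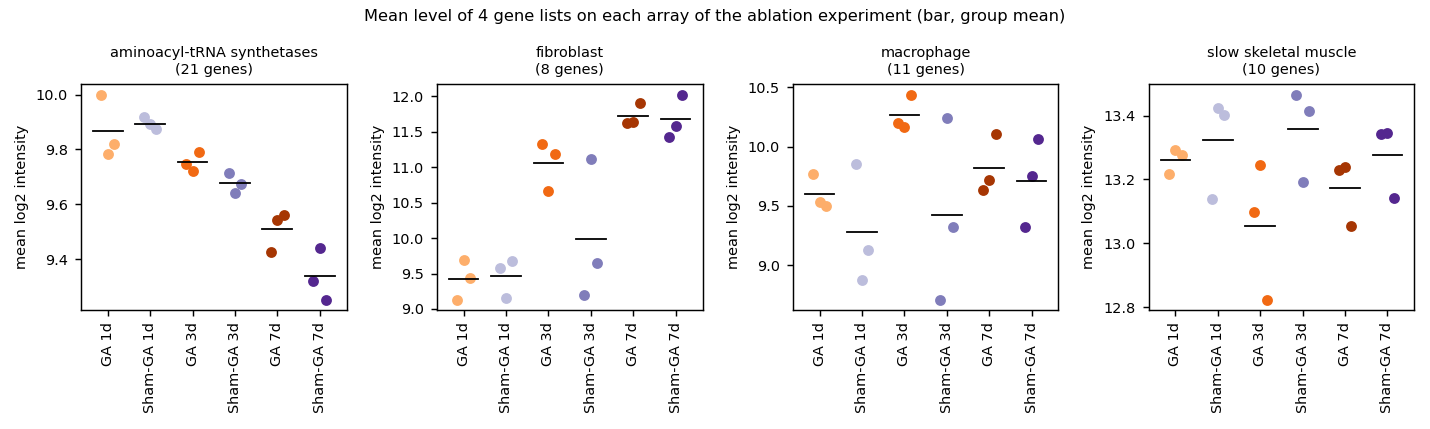
Mean log2 intensity (vertical axis) of 21 synthetase genes, 8 fibroblast markers, 11 macrophage markers and 10 slow muscle markers on each array (points) of 6 ablation groups (horizontal axis; d, days; bars, group means). The synthetase mean lies lower and the fibroblast mean higher at 7 days than at 1 day with no overlap, while slow muscle markers stay between 12.82 and 13.47.

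Of 22 control genes of the mTORC1 pathway, 1 was called in each contrast of 7 days with 1 day, a count near or under those background shares: Sesn3, a sestrin that restrains mTORC1, rose by 1.54 in GA and by 0.86 in Sham-GA. The medians of the list were -0.06 in GA and -0.12 in Sham-GA. Of 10 termination and recycling genes, the ribosome-splitting Abce1 fell in GA (-0.70) and the release factor Etf1 in Sham-GA (-0.75), 1 of 10 in each and close to the same background. Of 8 genes for hypusine and diphthamide, the modified residues of eIF5A and eEF2, Dohh and Dph1 fell in GA (-0.68 and -0.74) and Dph5 in Sham-GA (-0.78). That is 2 of 8 in GA and 1 of 8 in Sham-GA, where 8.6% and 6.57% of all genes were called, so few genes that the shares say little. Against Sham-SCI, Sham-GA or SCI, 0 genes of these 5 lists were called. The synthetases nonetheless had higher means in 21 of 21 genes in SCI-ES at 1 day compared with SCI (median 0.24), lower means in 20 of 21 in SCI compared with Sham-SCI (median -0.23), and higher means in 19 of 21 in GA compared with Sham-GA at 7 days (median 0.24).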

How the data were processed

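Total RNA of the soleus was hybridized to Affymetrix rat exon arrays. The authors subtracted background, quantile normalized and summarized by median polish (RMA, oligo package, versions not given in the sources used here) and deposited log2 values for 29214 rows and 33 samples. GEO's platform annotation gave 1 symbol to 15310 rows, several to 323 and none to 13581, and 50 of 51 factors matched a RefSeq gene. The deposited log2 values were used as given, keeping rows with a mean of at least 3, with limma 3.58.1 (lmFit, eBayes, R 4.3.3), 1 mean per group and no covariate, over the 15 transection, 18 ablation or all 33 arrays. This tested 14456, 14451 and 14453 genes, with Benjamini-Hochberg adjustment over all of them, and was checked on simulated data. "The test of the methods" is one-way (transection) or two-way (ablation) analysis of variance at p under 0.05 with 1.5 fold. The factors, gene lists and rule for naming were chosen with earlier results of these data known. Factors named were those called, the 5 highest and 5 lowest differences between groups, those without overlap at an unadjusted p under 0.01, and a preset list standing for each step. The comparisons of days and leaving out Sham-GA 3 days replicate 2 were chosen after seeing the data.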

Additional observations from a re-analysis of the deposited data

How the results depend on the processing

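Counts of called factors and median differences were recomputed under other filters, normalizations, priors, row choices, sets of arrays and a replicate block, and without each array in turn. Of 355 recomputed counts 343 stayed within 1.5 times and 12 did not. Of 328 recomputed medians 275 kept their sign and stayed within 1.5 times, 46 kept only their sign and 7 changed sign, in 3 comparisons whose medians lay near 0. These were SCI-ES 7 days against SCI (0.02 with the filter on invariant rows, 0.0016 with quantile normalization again, 0.0047 with centred arrays and 0.01 without SCI-ES 7 days replicate 2), the mean GA effect (-0.0088 without GA 1 day replicate 1) and GA 3 days against 1 day (-0.03 with quantile normalization again and -0.0029 without GA 1 day replicate 2). No called factor changed direction. With the filter on invariant rows, which kept 28 of 51 factors, the medians were -0.18 in SCI, 0.13 in GA at 3 days, -0.24 for ES minus GA at 3 days and -0.56 in Sham-GA at 7 days against 1 day. The test of the methods called 1 factor in SCI-ES at 1 day. In a fit of only the groups compared, Sham-GA at 7 days against 1 day called 6 factors, and it called 15 with all 33 arrays in 1 fit. Without a fold minimum the 7-day comparison called 10 factors in GA (19.6%, against 12.5% of all genes). In the mean of GA and Sham-GA it called 20 (39.2%, against 22.6% of all genes). Leaving out 1 array, the counts at 7 days against 1 day ran between 4 and 13 in Sham-GA and between 3 and 6 in GA. Over all genes they ran between 455 and 1077 in Sham-GA and between 865 and 1353 in GA. In GA at 3 days against 1 day the count of factors ran between 0 and 1 (27 to 613 over all genes). For ES minus GA at 1 day it ran between 0 and 1 (1 to 102 over all genes). The median in SCI ran between -0.13 and -0.04 (-0.0366 without SCI replicate 1). The cause was not tested where the setting does not itself show it. No comparison had all 3 pairs of same-numbered arrays correlated over 0.1 (at most 2), so the numbers were treated as names only. With 3 pairs this rule cannot exclude pairing. Between GA and Sham-GA the correlations of deviations from group means were 0.612, 0.417 and -0.0346 at 1 day. They were -0.219, -0.718 and -0.564 at 3 days, and 0.216, 0.0522 and 0.547 at 7 days. With the replicate block the counts were 5 in GA and 10 in Sham-GA at 7 days against 1 day, with Eif4a2 lost in GA (adjusted p = 0.0633), and no other call changed. With 3 arrays per group, the median standard error of a difference between groups was 0.12 in the transection and 0.15 in the ablation experiment on the log2 scale.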
